A study of Mus musculus with 4 samples.

Results

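The proteins of the cytosolic ribosome were followed at the level of their mRNAs in the mouse hippocampus after anesthesia and surgery. Their genes were taken by symbol from the deposited table of gene counts: every row named Rpl or Rps followed by a number, the stalk genes Rplp0, Rplp1 and Rplp2, and Rpsa, leaving out the kinase genes Rps6k and the rows with "-ps" in their symbol. This gave 91 of the 31060 genes in the table. Of these, 77 encode the core proteins of the ribosome, 46 of the large subunit and 31 of the small subunit. The other 14 are paralog forms, retrotransposed copies and Rps19bp1, which takes its name from binding Rps19 and is known as a regulator of SIRT1, not as a protein of the ribosome.

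All libraries came from the hippocampus of wild-type C57BL/6 mice labelled as 12 months of age. The 2 surgery libraries were taken on day 3, 72 h after exploratory laparotomy under sevoflurane. The 2 control libraries came from naive mice, labelled day 0, which had neither anesthesia nor surgery, so the anesthetic and the operation cannot be told apart. No source used here states whether the replicates come from separate animals. Every p below therefore measures the spread between these libraries, which may be technical.

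Each ribosome is built from ribosomal RNA and one copy of nearly every ribosomal protein. The small subunit reads the mRNA, the large subunit joins the amino acids, and the flexible stalk of P proteins on the large subunit recruits the elongation factors. The mRNAs of these proteins are abundant in every cell and short. Many begin with a C followed by a run of C and T bases (in RNA, C and U), the terminal oligopyrimidine or TOP motif, through which the kinase mTORC1 and the RNA-binding protein LARP1 set how strongly they are translated. That control acts on translation and is not measured by mRNA counts.

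Gene counts per library totalled 19318085 and 18159582 in surgery, against 19193382 and 18002695 in control. Mitochondrially encoded genes held 6.32% and 6.61% of them in surgery, against 5.25% and 4.51% in control. Control library 1 stood apart in choroid plexus RNA: the summed level of the 9 markers of that tissue was 3686 and 4603 CPM (counts scaled to a common library size with TMM factors) in surgery, against 54.1 and 3564 CPM in control, and Kcnj13 was at 0 in control library 1. Oligodendrocyte markers, 2 of 5 of which were lower in surgery at an unadjusted p under 0.05, summed to 4101 and 2931 CPM in surgery and to 4099.9 and 4257 CPM in control. Blood markers, of which Hbb-bs was lower at that threshold (1 of 5), summed to 50.1 and 62.9 CPM in surgery and to 49.2 and 109.8 CPM in control, so that control library 2 was the highest. Higher at that threshold were Sostdc1 (1 of 9 choroid plexus markers), Prox1 (1 of 3 for dentate granule cells) and Aqp4 (1 of 4 for astrocytes). The other marker lists had no gene past it. Over all tested genes 5.63% were lower and 4.33% higher. The neuronal markers summed to 5354 and 5248 CPM in surgery and to 5480.1 and 4655 CPM in control. Libraries also differed in how counts ran with GC content: the rank correlation of a gene's deviation with its GC content was -0.65 and -0.06 in the surgery libraries, against 0.26 and 0.59 in the control libraries. The part of these differences in the values below was not tested. An offset for GC content and leaving out 1 library at a time were tried, and their values stand beside a named member at the unadjusted threshold where they moved its log2 fold change by over 1.5 times or, for the offset, ended its call. In bulk tissue, fewer cells of a type and less RNA per cell cannot be told apart.

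As a whole the ribosomal protein genes showed no difference between the groups in their share of the counts beyond the spread of the libraries. They held 0.978% and 0.914% of all gene counts in surgery, against 0.915% and 1.02% in control. The groups overlapped, since the lowest surgery and the lowest control library were nearly equal. The means were 0.946% ± 0.045 in surgery and 0.968% ± 0.0755 in control (SD, n = 2 each), with p = 0.67 in an exact two-sided permutation test that cannot go below 0.33 with 2 libraries against 2. With the mitochondrial genes left out of the total, the shares were 1.04% and 0.979% in surgery and 0.965% and 1.07% in control.

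Gene by gene, 87 of the 91 members had enough counts to be tested by edgeR's quasi-likelihood test, which was fitted to all 17236 genes that passed the same filter. No member passed an adjusted p of 0.05, and neither did any other gene in the table (0.0% of those tested). At an unadjusted p under 0.05, 15 members were lower in surgery and 9 higher. Over all tested genes the shares were 5.63% lower and 4.33% higher. The members' own shares were 17.2% and 10.3%. DESeq2 gave an adjusted p under 0.05 to 4 members, Rps29 and Rpl23a lower and Rps12 and Rps27rt higher. Of the 8962 genes to which it gave an adjusted p, 0.569% were lower and 0.19% higher at that threshold.

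The median log2 fold change (surgery over control) of the 87 tested members was -0.04, against 0.00 for all tested genes, and 53 of the 87 members lay within 0.25 log2 of 0. The core proteins of the large subunit had a median of -0.06 and those of the small subunit of -0.03. In the large subunit 28 of the 46 were negative, and in the small subunit 18 of the 31. Both surgery libraries lay below both controls for 24 tested members (22.3% of all tested genes did) and above both for 23 (20.3% of all tested genes). The 2 counts are nearly equal.

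**Figure D1:**
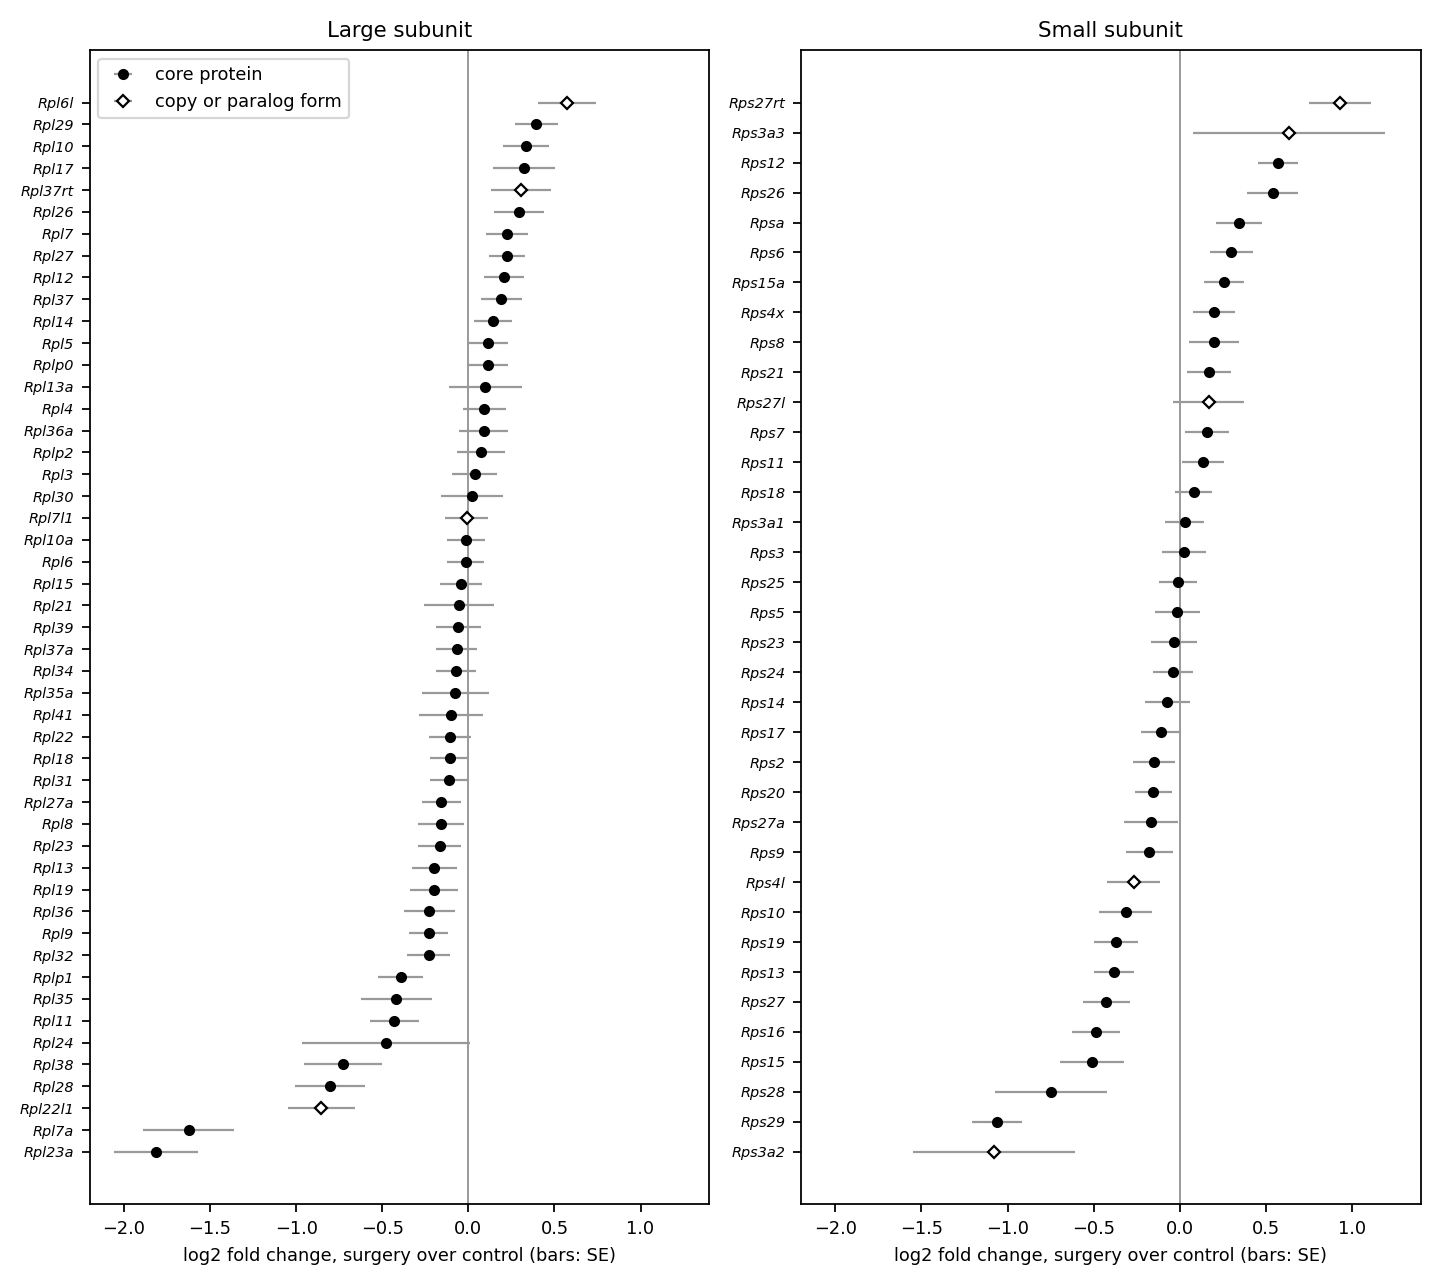
The log2 fold change (x axis, surgery over control, bars are the SE) of 85 tested members of the 2 subunits, with the large subunit on the left and the small subunit on the right; filled circles are core proteins and open diamonds are copies or paralog forms. Most points lie close to 0, with Rpl23a (-1.82), Rpl7a (-1.62), Rps3a2 (-1.08) and Rps29 (-1.06) at the low end and Rps27rt (0.93) at the high end.

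Among the small subunit proteins, Rps29 stood lowest of the core. Rps29 is a small zinc-binding protein of the subunit's head (gene on mm10 chr12:69157722-69159186, minus strand). It was at 49.8 and 63.6 CPM in the surgery libraries, against 107 and 130.0 CPM in the control libraries. Both surgery libraries were well below both controls, with a log2 fold change of -1.06 ± 0.15 (SE), an unadjusted p of 2.0e-05 and an adjusted p of 0.11 in edgeR. DESeq2 gave an adjusted p of 3.4e-07. No exon of another gene overlaps the main mRNA of Rps29, and with the GC offset its log2 fold change was -1.04.

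Other small subunit proteins were lower by less. Rps16, whose tail reaches the tRNA in the P site, was at 65.6 and 64.0 CPM in surgery, against 78.0 and 104 CPM in control (log2 fold change -0.49 ± 0.14, adjusted p = 0.38). Rps13 was at 41.9 and 42.7 CPM in surgery, against 55.4 and 55.0 CPM in control (-0.38 ± 0.12, adjusted p = 0.38). In both genes the groups did not overlap, and for Rps13 the libraries within a group were almost equal. Without the second control library, Rps16 had a log2 fold change of -0.26. Rps19, the gene most often mutated in human Diamond-Blackfan anemia, was at 66.1 and 67.1 CPM in surgery, against 76.5 and 95.6 CPM in control (-0.37 ± 0.13, adjusted p = 0.43; -0.19 without the second control library). Rps15, a protein near the decoding site, was at 103 and 164 CPM in surgery, against 176 and 204 CPM in control (-0.51 ± 0.19, adjusted p = 0.44). The second surgery library of Rps15 lay close to the lower control. Its log2 fold change was -0.21 without the first surgery library and -0.87 without the second, and -0.21 with the GC offset (unadjusted p = 0.14). Rps28 had 10.8 and 18.6 CPM in surgery and 15.8 and 33.4 CPM in control (-0.75 ± 0.32, adjusted p = 0.48), and its groups overlapped. Each library moved the value of Rps28 when left out, to -0.40 and -1.18 without the first and the second surgery library, and to -1.19 and -0.10 without the first and the second control library. With the GC offset it was as large, at -0.76 (unadjusted p = 0.056).

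The core small subunit genes Rps12, Rps26, Rpsa and Rps6 were higher in surgery at the unadjusted threshold. Rps12 was at 82.7 and 74.7 CPM in surgery, against 54.7 and 51.4 CPM in control, with a log2 fold change of 0.57 ± 0.12, an unadjusted p of 0.00050 and an adjusted p of 0.28 in edgeR (0.020 in DESeq2). The libraries of each group of Rps12 lay close together and far from the other group. Rps26, which lines the exit of the mRNA channel, was at 182 and 139 CPM in surgery, against 121 and 100.7 CPM in control (0.54 ± 0.15, adjusted p = 0.37). Rpsa, also known as the laminin receptor, was at 389 and 337 CPM in surgery, against 304 and 268 CPM in control (0.34 ± 0.13, adjusted p = 0.46). Rps6, the substrate of the S6 kinases downstream of mTORC1, was at 241 and 201 CPM in surgery, against 179 and 180.0 CPM in control (0.30 ± 0.12, adjusted p = 0.47). For Rps26, Rpsa and Rps6 the first surgery library was the highest of the 4. Without it Rps26 was at 0.34 and Rps6 at 0.17 on the log2 scale, and with the GC offset Rps6 was at 0.52.

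In the large subunit, Rpl23a and Rpl7a had the most negative log2 fold changes. Rpl23a sits beside the exit of the nascent peptide tunnel, where targeting factors dock (gene on mm10 chr11:78180932-78183584, minus strand). It was at 10.2 and 19.2 CPM in surgery, against 45.7 and 57.4 CPM in control (-1.82 ± 0.24, unadjusted p = 1.6e-05, adjusted p = 0.11; DESeq2 adjusted p = 0.029). The groups of Rpl23a lay far apart in the gene table, but the transcript table does not show the same difference, as described below. Rpl7a (mm10 chr2:26910764-26913318, plus strand) was at 14.4 and 25.7 CPM in surgery, against 48.0 and 75.6 CPM in control (-1.62 ± 0.26, adjusted p = 0.19; DESeq2 adjusted p = 0.13). Its groups did not overlap, although each group's libraries differed widely. Together with Rps29 these were the only members at an unadjusted p under 0.01 with at least a 2-fold change. That is 3 lower and 0 higher members, where 0.273% of tested genes were lower and 0.232% higher by that rule.

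Rpl28 was at 43.0 and 72.4 CPM in surgery, against 91.2 and 110.4 CPM in control (-0.80 ± 0.20, adjusted p = 0.34). Rpl38, which in mouse embryos is needed for the translation of Hox mRNAs, was at 30.7 and 48.3 CPM in surgery, against 51.6 and 79.3 CPM in control (-0.73 ± 0.23, adjusted p = 0.40). Both genes had their lowest value in the first surgery library and their highest in the second control library. Without the first surgery library their log2 fold changes were -0.47 for Rpl28 and -0.44 for Rpl38. Rpl28 was at -1.23 without the second surgery library, and Rpl38 at -0.38 without the second control library. Rpl11, which as a free protein binds Mdm2, was at 93.9 and 90.8 CPM in surgery, against 106 and 142 CPM in control (-0.43 ± 0.14, adjusted p = 0.41; -0.19 without the second control library). Rpl29 was higher, at 121 and 98.0 CPM in surgery against 85.5 and 81.3 CPM in control (0.40 ± 0.13, adjusted p = 0.41). Rpl10, one of the last proteins to join the large subunit, was at 201 and 159 CPM in surgery, against 138 and 147 CPM in control (0.34 ± 0.13, adjusted p = 0.46). In both Rpl29 and Rpl10 the groups did not overlap and the first surgery library was the highest. Without it the log2 fold change was 0.24 for Rpl29 and 0.16 for Rpl10. With the GC offset it was 0.66 for Rpl29 and 0.25 for Rpl10 (unadjusted p = 0.055 for Rpl10).

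The stalk proteins differed in sign. Rplp1 was at 239 and 208 CPM in surgery, against 275 and 312 CPM in control (-0.39 ± 0.13, adjusted p = 0.41), with both surgery libraries below both controls. Rplp0, the anchor of the stalk, was at 208 and 186 CPM in surgery, against 189 and 175 CPM in control (0.11 ± 0.12, adjusted p = 0.77). Rplp2, the partner of Rplp1, was at 76.2 and 74.0 CPM in surgery, against 61.4 and 81.3 CPM in control (0.07 ± 0.14, adjusted p = 0.89). For both of these the groups overlapped. With the GC offset Rplp1 had a log2 fold change of -0.22 and an unadjusted p of 0.12.

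On the length-scaled FPKM values, Rplp1 was also the most abundant member, at 477 and 412 FPKM in surgery, against 540.2 and 643 FPKM in control. Rps15 came next by mean level, at 163 and 257 FPKM in surgery and 274 and 332 FPKM in control. Rps3a1 (231 and 219 FPKM in surgery, 218 and 229 FPKM in control) and Rpl4 (221 and 206 FPKM in surgery, 199 and 207 FPKM in control) followed, and their libraries differed little. After these came the Rps27 copy Rps27rt, described below. The 87 tested members ranged from 0.773 to 518 FPKM in their mean over all libraries, with a median of 53.6 FPKM.

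**Figure D2:**
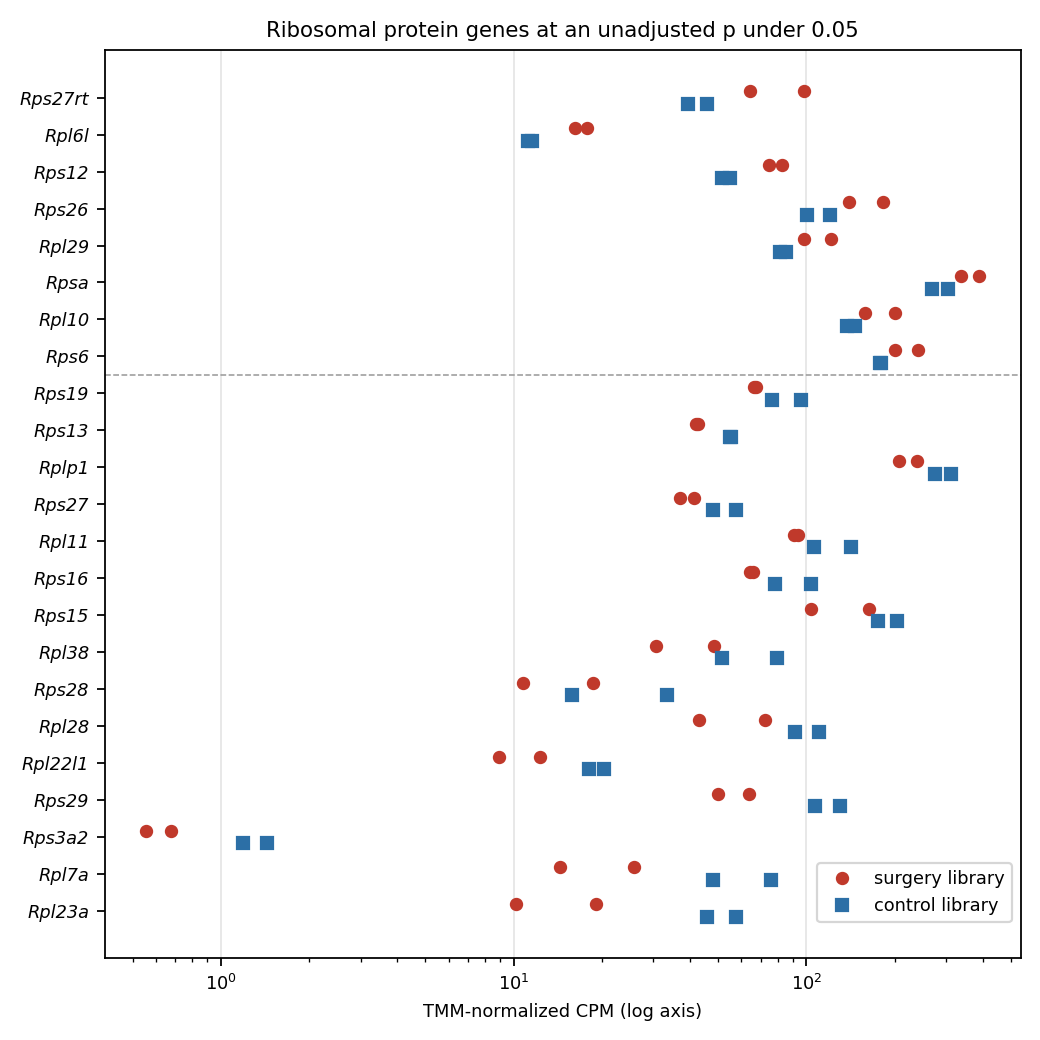
TMM-normalized CPM (x axis, log scale) in each library for 23 of the members at an unadjusted p under 0.05, with surgery libraries as circles and control libraries as squares; members above the dashed line were higher in surgery. Of those drawn, only Rps28 has overlapping groups, and the distance between groups is widest for Rpl23a (10.2 and 19.2 CPM against 45.7 and 57.4 CPM).

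Of the 15 that were lower in surgery, 13 had their highest value in the second control library and 9 their lowest in the first surgery library. Of the 9 that were higher, 8 had their highest value in the first surgery library and 7 their lowest in the second control library. The choice of members as lower or higher already puts these extremes in one group or the other. Over all 87 tested members, the second control library was the highest for 38 and the lowest for 18, and the first surgery library was the highest for 33 and the lowest for 23. These are the 2 libraries that differed most in their run with GC content. With an offset that removes that run, 14 members were lower (3.97% of all tested genes) and 13 higher (3.01% of all tested genes), and the members' median was -0.01. Of the 15 lower members 12 were also lower there and 8 of the 9 higher members were also higher. Rplp1 and Rps15 no longer passed with values nearer 0, Rps28 with a value as large as before and Rpl10 with a value of 0.25 against 0.34, as given above.

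The mRNAs of the lower members were short. Their main mRNA had a median of 560 bases, against 799 for the higher members and 838 for the 63 other tested members, with ranges that overlapped widely. Their median GC content was 52.6%, against 50.6% for the higher members and 50.4% for the others. Across the 77 core genes, the rank correlation of the log2 fold change was -0.26 with GC content and 0.30 with mRNA length, which is a description across genes measured in the same 4 libraries. Over the 10859 tested genes above 8 CPM, the rank correlation with GC content was -0.60. Small nucleolar RNAs lie on the same strand within the span of 30 of the 77 core genes, and of 4 of the 15 lower and 4 of the 9 higher members, Rpl23a, Rpl7a and Rps12 among them with 3 each.

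Sequences around the annotated start were read to see which members have a pyrimidine run over the annotated first base. A run could lie largely before that base, so it need not be a TOP motif. In the RefSeq promoter table (GRCm38.p6) 67 of the 91 members had an entry. Windows of 40 bases are shown, 15 before the annotated first base and 25 from it, with the run of C and T that spans the first base in capitals. Every member at the unadjusted threshold with a run of at least 5 is shown. Rps12 was added from those without such a run, which are otherwise not shown. The display therefore does not show how common the run is among called members. The windows are those of Rpl7a (chr2:26910792-26910831, plus strand), Rpl28 (chr7:4792950-4792989, plus strand), Rpl38 (chr11:114668565-114668604, plus strand) and Rps27 (chr3:90213624-90213663, minus strand) among the members lower in surgery. Rps27rt (chr9:114982715-114982754, minus strand), Rps6 (chr4:86857343-86857382, minus strand) and Rps12 (chr10:23787185-23787224, minus strand) are from the members that were higher.
Rpl7a: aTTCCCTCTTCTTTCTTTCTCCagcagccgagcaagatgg
Rpl28: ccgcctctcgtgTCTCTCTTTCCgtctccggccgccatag
Rpl38: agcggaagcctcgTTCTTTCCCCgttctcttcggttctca
Rps27: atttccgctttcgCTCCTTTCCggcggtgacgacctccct
Rps27rt: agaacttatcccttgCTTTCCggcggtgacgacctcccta
Rps6: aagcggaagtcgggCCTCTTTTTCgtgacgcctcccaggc
Rps12: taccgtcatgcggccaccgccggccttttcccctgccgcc

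The annotated first base of Rps12 is not C or T, so its window has no capitals. A run of at least 5 C or T over the first base was found in 20 of the 67 members (29.9%), against 9.95% of all 27025 windows of the same length. The letters CTTTC, read on the gene's own strand, were in 17 of the 67 (25.4%), against 5.15% of all windows, and 31.3% of members against 9.81% of windows held them on either strand. The longer CTTTCC, which contains CTTTC, was in 14.9% of the members and 1.89% of all windows on the gene's own strand, and in 16.4% and 3.62% on either. Among the members called at the unadjusted threshold, such a run was in 4 of the 11 lower ones with an entry and in 2 of the 6 higher ones, against 13 of the 46 other tested members with an entry. Annotated starts need not be the base at which transcription begins in the hippocampus.

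Rps27 and its copy Rps27rt had fold changes of opposite sign. Rps27 encodes a zinc-finger protein of the small subunit on chromosome 3 (mm10 chr3:90212522-90213651, minus strand, 4 exons), and Rps27rt is a retrotransposed copy in a single exon on chromosome 9 (mm10 chr9:114982366-114982739, minus strand). Rps27 was at 41.4 and 37.1 CPM in surgery, against 48.1 and 57.4 CPM in control (-0.43 ± 0.13, adjusted p = 0.41). Rps27rt was at 98.0 and 64.3 CPM in surgery, against 45.7 and 39.5 CPM in control (0.93 ± 0.18, unadjusted p = 0.00035, adjusted p = 0.25; DESeq2 adjusted p = 0.00085). Without the first surgery library the log2 fold change of Rps27rt was 0.60. Neither gene's groups overlapped. Of the counts on both rows, the copy held 70.3% and 63.4% in surgery, against 48.7% and 40.8% in control. Their sum was 139 and 101.5 CPM in surgery, against 93.8 and 96.9 CPM in control.

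The coding sequence of both, 255 bases from GENCODE vM21 on GRCm38, is the same at every base, so it is printed once. Below it stands that of Rps27l, the paralog on the same chromosome as the copy, with the bases that differ from Rps27 in capitals.
Rps27: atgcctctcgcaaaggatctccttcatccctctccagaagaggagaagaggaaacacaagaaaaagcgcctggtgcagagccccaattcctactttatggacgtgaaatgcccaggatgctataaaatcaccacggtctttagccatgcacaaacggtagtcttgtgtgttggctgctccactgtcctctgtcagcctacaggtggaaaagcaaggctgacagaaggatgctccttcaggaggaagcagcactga
Rps27l: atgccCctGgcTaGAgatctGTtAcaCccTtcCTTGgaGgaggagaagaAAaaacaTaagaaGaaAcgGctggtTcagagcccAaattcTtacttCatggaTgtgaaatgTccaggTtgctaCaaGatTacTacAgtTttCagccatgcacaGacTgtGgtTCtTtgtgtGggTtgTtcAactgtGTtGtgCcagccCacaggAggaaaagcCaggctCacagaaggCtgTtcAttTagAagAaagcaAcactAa

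Over the whole mRNA, 341 of the 345 bases of Rps27 lined up with Rps27rt with 0 differences. A read within that stretch matches both places, split over the introns of Rps27 or unsplit in Rps27rt, and how such reads were assigned is not given in the sources used here. The 2 rows are therefore uncertain as measures of each gene. Rps27l differs from Rps27 at 61 bases, was at 10.3 and 8.13 CPM in surgery and 7.91 and 8.54 CPM in control, and its groups overlapped (0.17 ± 0.21, adjusted p = 0.81).

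**Figure D3:**
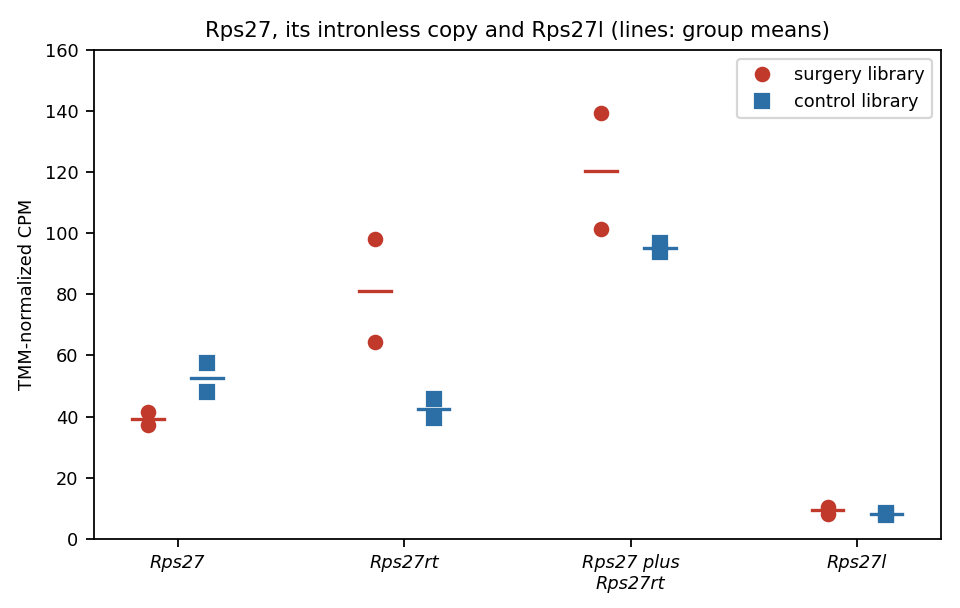
TMM-normalized CPM (y axis) of Rps27, its single-exon copy Rps27rt, the sum of both and the paralog Rps27l, with 1 point per library (circles surgery, squares control) and lines at the group means. The surgery libraries are below control for Rps27 (41.4 and 37.1 CPM against 48.1 and 57.4 CPM) and above it for Rps27rt and for the sum.

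Other copies and paralog forms were at lower levels. Rpl6l, a processed copy that matches Rpl6 at 96.5% of its coding bases, was at 16.2 and 17.8 CPM in surgery, against 11.6 and 11.2 CPM in control (0.57 ± 0.17, adjusted p = 0.38), while Rpl6 itself was at 181 and 180.4 CPM in surgery and 183 and 182 CPM in control. The copy held 8.21% and 8.96% of the counts on both rows in surgery, against 5.96% and 5.81% in control. Rpl22l1, the paralog of Rpl22 and similar to it at 68.0% of coding bases, was at 12.3 and 8.91 CPM in surgery, against 18.1 and 20.3 CPM in control (-0.85 ± 0.19, adjusted p = 0.32). Rpl22 was at 87.9 and 76.3 CPM in surgery and 83.0 and 94.1 CPM in control (-0.11 ± 0.12, adjusted p = 0.80). The groups of Rpl22l1 did not overlap and those of Rpl22 did. Rps3a2, a copy of Rps3a1 with 99.1% of its coding bases, had 13 and 10 counts in surgery, against 27 and 22 in control (-1.08 ± 0.47, adjusted p = 0.48). Copies as similar as Rpl6l and Rps3a2 can exchange reads with their parents, so the rows of both are uncertain.

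Rps4l was at 23.0 and 21.6 CPM in surgery, against 29.8 and 23.99 CPM in control (-0.27 ± 0.15, adjusted p = 0.57), and its parent Rps4x, the X-linked form, was at 207 and 175 CPM in surgery, against 169.7 and 164 CPM in control (0.20 ± 0.12, adjusted p = 0.59). Rpl7l1, whose product works in ribosome assembly, was at 34.8 and 37.6 CPM in surgery and 36.3 and 36.6 CPM in control (-0.01 ± 0.13, adjusted p = 0.98), and Rpl7 at 236 and 204 CPM in surgery and 196 and 180.1 CPM in control (0.23 ± 0.12, adjusted p = 0.55). Rpl3 (0.04 ± 0.13), Rpl36a (0.09 ± 0.14) and Rpl39 (-0.06 ± 0.13) had overlapping groups. Rps19bp1 was at 17.1 and 13.4 CPM in surgery, against 11.1 and 13.02 CPM in control (0.34 ± 0.19, adjusted p = 0.56), where the second surgery library was near the second control. The 4 members not tested were Rpl3l, the form known from striated muscle, with 0 and 8 counts in surgery and 8 and 5 in control, Rpl39l, known from testis, with 0 and 0 against 2 and 2, Rpl32l with 3 and 1 against 1 and 3, and Rpl36al with 13 and 7 against 3 and 7. At such counts a difference was not detectable.

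A second table, of counts per transcript, was deposited for the same libraries. It is not independent of the gene table, and the tool behind it is not given in the sources used here. Its totals were 75437127 and 70923130 in surgery, against 73805000 and 69394548 in control. When its transcripts were summed per gene, the sums of members were a median of 3.85 times the gene rows, against 3.58 times for all tested genes. Both sources gave a value for 87 members, of which 74 had the same sign and 66 agreed within 0.2 log2. By the sums 5 members were lower (3.02% of all tested genes) and 5 higher (2.14%) at an unadjusted p under 0.05. All 15 lower members of the gene table were also negative and all 9 higher ones positive, and 3 of each passed the unadjusted threshold there in the same direction.

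**Figure D4:**
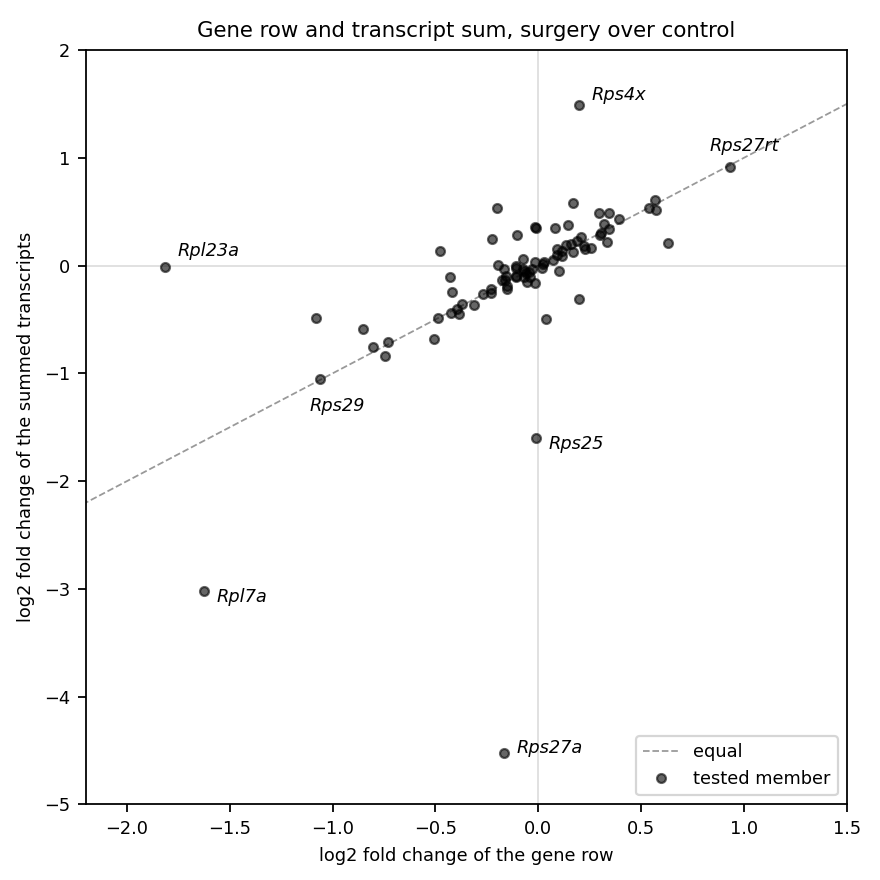
The log2 fold change of the gene row (x axis) against that of the summed transcripts (y axis) for 86 of the members with both values, with a dashed line where they are equal. Rps29 (-1.06 and -1.05) and Rps27rt (0.93 and 0.91) lie on the line, while Rpl23a, Rpl7a, Rps27a, Rps4x and Rps25 lie more than 1 log2 from it.

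For Rps29 the tables agreed: Rps29-201, its protein-coding transcript, had 3801 and 4488 counts in surgery, against 7857 and 9449 in control. They also agreed for Rps27rt, whose only transcript had 7557 and 4686 counts in surgery, against 3503 and 2989 in control. For Rpl23a they did not. Its gene row held 196 and 344 counts in surgery, against 862 and 1062 in control, but its summed transcripts held 6869 and 6731 in surgery and 6363 and 7386 in control, with a log2 fold change of -0.01 and overlapping groups. Within the gene, the protein-coding Rpl23a-201 had 2 and 2 counts in surgery, against 5038 and 6909 in control, and the retained-intron Rpl23a-202 had 6808 and 6609 in surgery, against 1291 and 375 in control. The main mRNA of Rpl23a shares 55.4% of its bases with exons of Tlcd1 on the opposite strand, and Tlcd1 had 198 and 200 gene counts in surgery and 234 and 203 in control. Whether reads were counted by strand is not given in the sources used here.

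Rps27a, Rps4x and Rps25 differed between the tables as well. The gene row of Rps27a, which encodes ubiquitin fused to a ribosomal protein, was at 43.3 and 42.5 CPM in surgery and 40.6 and 55.8 CPM in control, but its transcript Rps27a-205, annotated as non-coding, had 0 and 0 counts in surgery, against 2062 and 2958 in control. Rps4x-201 had 15943 and 12019 counts in surgery, against 5208 and 4633 in control, while the gene row of Rps4x had a log2 fold change of 0.20. Rps25 was near-equal in the gene table (126 and 116 CPM in surgery, 123 and 121 CPM in control), but Rps25-201 had 1164 and 1094 counts in surgery and 1334 and 4705 in control, so its transcript difference rests on the second control library. Rpl7a was lower in both tables, with 0 and 340 counts of Rpl7a-201 in surgery, against 1521 and 1370 in control. For Rpl3 the gene row was at 0.04 on the log2 scale. Its summed transcripts held 18817 and 15597 counts in surgery, against 26835 and 21789 in control. By these sums Rpl3 was at -0.50 ± 0.15 (SE), with an unadjusted p of 0.028 and an adjusted p of 0.85 in edgeR.

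Over the 446 transcripts of members, 387 were tested, and none had an adjusted p under 0.05 in edgeR (0.0% of the 65665 transcripts tested). At an unadjusted p under 0.05, 18 were lower (3.3% of all tested transcripts) and 11 higher (2.69%). Protein-coding transcripts took 84.8% and 85.4% of the members' transcript counts in surgery, against 84.5% and 85.6% in control. Retained-intron transcripts took 10.1% and 9.77% in surgery, against 9.98% and 9.13% in control. The groups overlapped in both classes. They did not in the next 2 classes by size: transcripts marked for nonsense-mediated decay took 1.68% and 1.70% in surgery, against 0.780% and 1.10% in control, and processed transcripts, which have no open reading frame annotated, took 2.72% and 2.39% in surgery, against 3.94% and 3.63% in control. Of the 2 smallest classes, transcribed processed pseudogenes overlapped, at 0.449% and 0.458% in surgery and 0.544% and 0.398% in control, and processed pseudogenes did not, at 0.221% and 0.282% in surgery, against 0.214% and 0.177% in control. These shares depend on how reads were divided among the models of a gene, and no test was run on them.

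**Figure D5:**
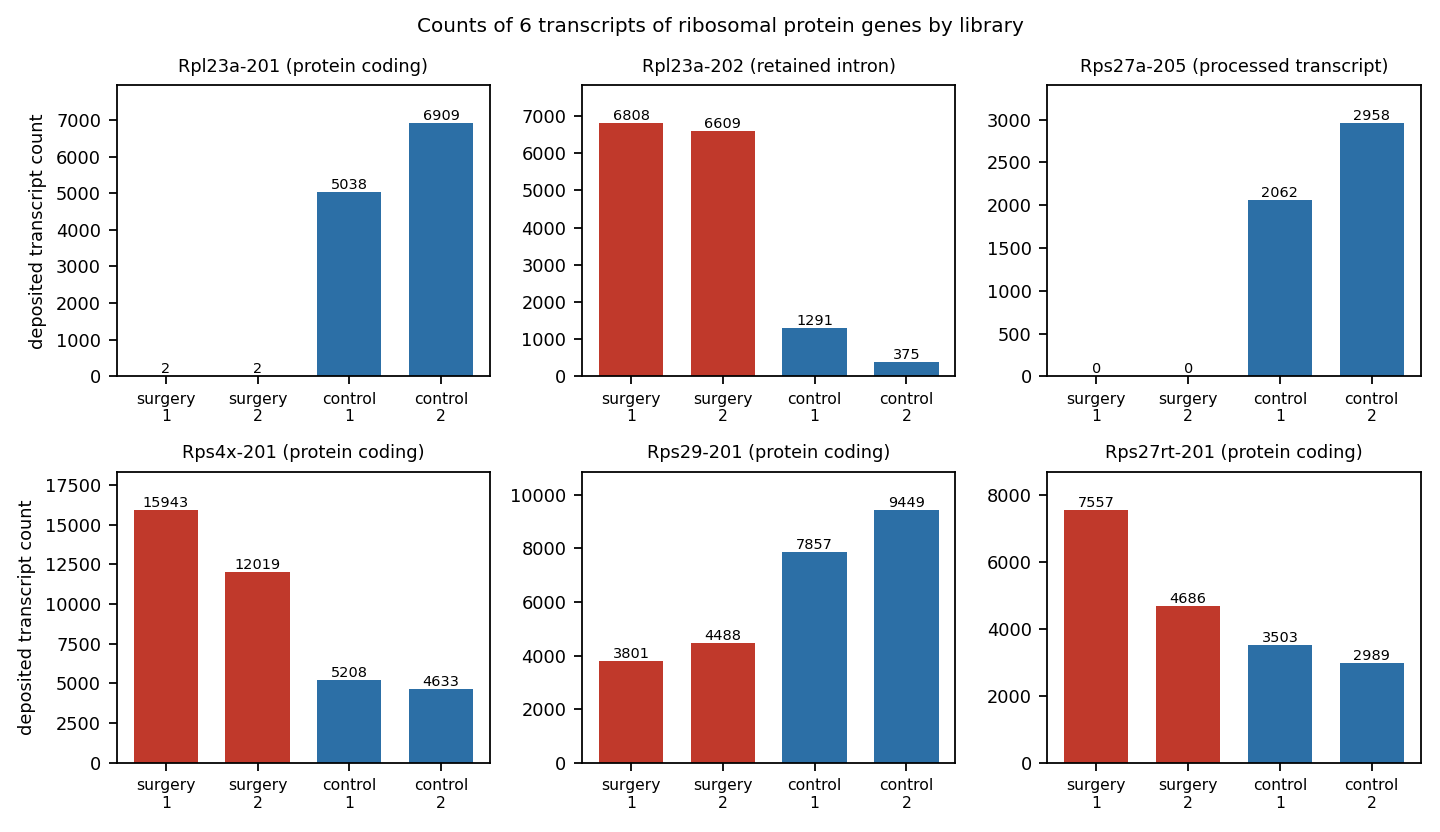
Deposited counts (y axis, starting at 0) of 6 transcripts in the 2 surgery (left) and the 2 control libraries (right). Rpl23a-201 and Rpl23a-202 are high in opposite groups, Rps27a-205 is at 0 in both surgery libraries, and Rps29-201 and Rps27rt-201 show the differences seen in their gene rows.

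Some rows held few counts where genes overlap. Of the 91 members, 16 share exon bases with another gene. Rpl24, which shares 71.5% of its main mRNA with Gm28037 on the same strand, had 25 and 11 gene counts in surgery and 21 and 29 in control, but 8720 and 9178 summed transcript counts in surgery and 7870 and 8467 in control. Rpl13a, 59.3% of whose main mRNA is shared, had 201 and 193 gene counts in surgery and 155 and 214 in control, but 18229 and 16638 summed transcript counts in surgery and 16494 and 19758 in control. The untested Rpl36al had 2513 and 2157 summed transcript counts in surgery and 2346 and 2610 in control. By these sums the log2 fold change was 0.14 ± 0.13 for Rpl24, -0.05 ± 0.14 for Rpl13a and -0.08 ± 0.16 for Rpl36al (SE), with adjusted p of 0.88, 0.96 and 0.94 in edgeR. On the opposite strand, Gm33051 overlaps 28.8% of the main mRNA of Rpl22l1 and Ube2s 16.5% of that of Rpl28, so that without strand in the counting their reads could not be told apart. Among the 63 core genes with no such overlap, 11 were lower and 7 higher at the unadjusted threshold (5.63% and 4.33% of all tested genes), with a median log2 fold change of -0.04.

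Genes of the same pathway had medians near 0 too, and their counts at the unadjusted threshold stand against 5.63% of all tested genes lower and 4.33% higher. Of 19 elongation factors and other TOP mRNAs, 1 was higher and 1 lower at the unadjusted threshold of 0.05: Btf3, a subunit of the nascent polypeptide-associated complex, at 79.1 and 76.1 CPM in surgery against 66.1 and 63.2 CPM in control, and Eef1d, a subunit of the elongation factor exchange complex, at 47.4 and 48.6 CPM in surgery against 53.4 and 63.4 CPM in control. Their median log2 fold change was -0.06. Of 32 initiation factors, 1 was higher, Eif2s2, the beta subunit of eIF2, at 62.8 and 61.5 CPM in surgery against 50.1 and 47.9 CPM in control (0.34 ± 0.11, adjusted p = 0.41), with a median of -0.03 for the list. Of 38 ribosome biogenesis genes, 2 were lower, Nhp2 (-0.40 ± 0.17) of the H/ACA complex and Nob1 (-0.31 ± 0.14), the nuclease that finishes the small subunit RNA, and the median was -0.02.

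The mTOR pathway genes numbered 26, of which 2 were lower and 1 higher at that threshold (5.63% and 4.33% of all tested genes), with a median of -0.05. Ddit4, an inhibitor of mTORC1 that is induced by stress and glucocorticoids, was at 24.004 and 40.5 CPM in surgery, against 52.5 and 71.3 CPM in control (-0.94 ± 0.22, unadjusted p = 0.0016, adjusted p = 0.34). The groups of Ddit4 did not overlap. Sesn2, an amino acid sensor upstream of mTORC1, was at 16.99 and 19.7 CPM in surgery, against 23.9 and 22.7 CPM in control (-0.35 ± 0.15, adjusted p = 0.49), and Rragc, a Rag GTPase that brings mTORC1 to the lysosome, at 78.2 and 73.4 CPM in surgery against 64.8 and 56.6 CPM in control (0.32 ± 0.12, adjusted p = 0.45). Larp1 was at 128 and 145 CPM in surgery, against 156 and 164 CPM in control (-0.23 ± 0.12, adjusted p = 0.53).

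Processed copies left out by the rule were also found on both sides. Of the 173 rows with "-ps" in their symbol, 46 were tested, of which 5 were lower and 2 higher at the unadjusted threshold (5.63% and 4.33% of all tested genes). Rpl17-ps10 had 911 and 993 counts in surgery, against 1497 and 1530 in control (-0.66 ± 0.12, adjusted p = 0.24), and Rpl17-ps3 had 1082 and 538 in surgery, against 444 and 425 in control (0.89 ± 0.24, adjusted p = 0.37). These 2 copies of one gene had fold changes of opposite sign, as Rps27 and Rps27rt did, while Rpl17 itself was at 70.4 and 46.1 CPM in surgery and 49.9 and 43.3 CPM in control, with overlapping groups. Rpl28-ps1 (-0.83 ± 0.26, adjusted p = 0.40), Rpl7a-ps5 (-0.82 ± 0.28, adjusted p = 0.42) and Rpl7a-ps3 (-1.51 ± 0.66, adjusted p = 0.48) were negative, like their parents. Rpl36a-ps2 (-0.56 ± 0.24, adjusted p = 0.48) and Rps10-ps2 (0.31 ± 0.13, adjusted p = 0.46) had the other sign than their parents, Rpl36a (0.09 ± 0.14) and Rps10 (-0.31 ± 0.15). With the copies added to their parent gene, Rpl23a alone of the members passed an adjusted p of 0.05 in edgeR.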

How the data were processed

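Per the submitters' notes, the authors used HISAT2 for alignment to mm10 and HTSeq (version given: 5.4.2) for counting. The deposited values are raw counts per gene and FPKM per gene, and estimated counts per transcript whose tool is not given in the sources used here. Transcript counts were used as deposited. Gene counts per library ranged from 18002695 to 19318085.

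Gene and transcript counts were tested with edgeR 4.0.16 in R 4.3.3 (TMM scaling; filterByExpr, minimum 10 in a library and 15 in all; quasi-likelihood test), surgery against control, with Benjamini-Hochberg adjustment over all tested features and a threshold of 0.05. The SE is the log2 fold change over the root of the F statistic. CPM values are scaled by TMM. GENCODE vM21 on GRCm38 gave exons, lengths and GC content, and RefSeq the start windows. The methods were tested on simulated data.

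The alternatives were DESeq2 1.42.0, RLE scaling, all genes with any count, only genes with 10 or more counts in every library, a block for the replicate number, leaving out each library in turn, limma 3.58.1 on log2(FPKM + 1) or log2(FPKM + 0.1) or with a mean FPKM of at least 1, an offset for GC content (loess span 0.3, genes above a log2 CPM of 3), copies added to their parent, and sums of transcripts. A count without overlapping members was added after seeing the data.

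The members and lists were chosen with earlier results of these data known. Named were members at an unadjusted p under 0.05 (at most 12 each way by smallest p), the 5 most abundant by FPKM, paralog forms with their parents, up to 4 of each list by smallest p, and members on which a sequence or position result turns. Rps15, Rps28, Rps3a2, Rplp0, Rplp2, Rps27a, Rps25, Rpl6, Rpl17, Rps10, Rps10-ps2, Rpl36a-ps2 and Rpl7a-ps3 were named after their values were seen where no part of that rule holds them. Some genes that the rule holds are not reported here.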

Additional observations from a re-analysis of the deposited data

How the results depend on the processing

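The number of members at an adjusted p under 0.05 was 0 with RLE factors, at least 10 counts in each library, the 3 FPKM fits, the GC offset and the transcript sums, as in the report. It was 4 with DESeq2 (68 of the 8962 genes with an adjusted p). It was 12 of 91 members without a count filter (395 of 29672 genes) and 1 of 87 with copies added to their parent (2 of 17190 genes). The rule of an unadjusted p under 0.01 with 2-fold change held 3 members, all lower (0.273% of tested genes were lower and 0.232% higher). With the replicate number as a block, 6 of 87 members passed the adjusted threshold (39 of 17236 genes). Same-numbered libraries shared only a number: their deviations correlated at 0.20 over 10867 genes with 2 pairs, which no label ties together. Leaving out 1 library at a time gave 4 to 18 members, 6 without surgery replicate 1 (of 109 genes), 18 without surgery replicate 2 (of 734), 6 without control replicate 1 (of 51) and 4 without control replicate 2 (of 264); the lone library is then assumed to vary like the other group. In these 4 fits the log2 fold change ran from -1.25 to -0.89 for Rps29 and from -2.34 to -1.42 for Rpl23a. It ran from -2.10 to -1.25 for Rpl7a and from 0.60 to 1.2 for Rps27rt. By the transcript sums Rpl23a was at -0.01.

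At an unadjusted p under 0.05, the sums of transcripts gave 5 lower and 5 higher members. Without 1 library the counts ran from 8 (without control replicate 2) to 19 lower and from 4 (without surgery replicate 1) to 19 higher (without surgery replicate 2). Without control replicate 1, the library low in choroid plexus RNA, 19 were lower and 7 higher. Over all tested genes the shares in these 4 fits ran from 3.22% to 8.12% lower and from 3.25% to 6.9% higher. The 24 members of the report kept their sign in all 4 fits. All of them but Rps28 have groups that do not overlap, so leaving out 1 library could hardly reverse the sign. The kept sign therefore says little about how stable these members are. Of the 24, 13 moved by over 1.5 times in at least 1 of the 4 fits. The median log2 fold change ran from -0.088 without control replicate 1 to 0.038 without control replicate 2. The difference in the share of counts, -0.0223 percentage points, ran from -0.0757 to 0.0311 and turned positive without surgery replicate 2 (0.0095) and without control replicate 2. The cause was not tested.

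Of 510 values for 34 of the named members, 12 had the other sign, in Rps3a1, Rpl7l1, Rps27l, Rpl3, Rpl36a and Rpl39. By their gene rows the log2 fold changes of these members are near 0. Members named outside these 34 could change sign too. Rpl24 was at -0.48 by its gene row and 0.14 by the transcript sums, and Rpl13a at 0.10 and -0.05. Leaving out 1 library, Rps3a1 ran from -0.0012 to 0.064, Rpl7l1 from -0.067 to 0.051, Rps27l from -0.012 to 0.33, Rpl3 from -0.087 to 0.16, Rpl36a from -0.051 to 0.26 and Rpl39 from -0.20 to 0.075. Rps3a1 was -0.0068 with the GC offset. The transcript sums gave -0.50 ± 0.15 (SE) for Rpl3, whose groups did not overlap there. For Rpl7l1 they gave 0.35 ± 3.40, from 0 and 2613 counts in surgery and 0 and 2120 in control, so that value says little. With 2 libraries per group, differences of the size of most members are within the spread between libraries.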
